A study of Mus musculus with 12 samples.

Results

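Integrin subunit transcripts were followed in C2C12 cells, an established line of mouse skeletal myoblasts that stop dividing and form multinucleated myotubes once serum is reduced. The 10 genes were taken by symbol from a list of integrins (Itga1, Itga3, Itga4, Itga5, Itga6, Itga7, Itga11, Itgav, Itgb1 and Itgb5), out of 55416 genes in the count table. All 10 were found, and all 10 passed the filter on low counts that left 13250 genes for testing. Itga4 passed it through its WT libraries alone, with 0 to 3 counts in each KO-labelled library. The 12 libraries form 4 groups of 3 biological replicates each: KO-labelled cells (genotype given as Mapk14-/-) in differentiation medium (DM, DMEM with 2% horse serum), KO-labelled cells in growth medium (GM, DMEM with 10% fetal bovine serum), WT cells in DM and WT cells in GM. Medium was switched to DM, or kept as GM, for 5 days. How the knockout line was made and from how many clones is not given in the sources used here, so a difference between KO-labelled and WT cells cannot be told apart from a difference between lines.

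Integrins are cell-surface receptors made of an alpha and a beta subunit, and the pair sets which ligand is bound. The beta subunit Itgb1 pairs with most of the alpha subunits listed here, whereas Itgb5 pairs with Itgav. Itga3, Itga6 and Itga7 give laminin receptors with Itgb1, Itga1 and Itga11 give collagen receptors, Itga5 gives the main fibronectin receptor, Itgav gives receptors for ligands with an arginine-glycine-aspartate (RGD) motif, and Itga4 binds fibronectin and the cell adhesion molecule VCAM-1. In skeletal muscle the Itga7 and Itgb1 pair is the main laminin receptor of differentiated fibres, and Itga6 is known from proliferating myoblasts.

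Mapk14 (p38 alpha), the gene named in the genotype label, was not lower in the KO-labelled libraries. In DM it stood at 93.8, 90.0 and 84.5 CPM (the TMM-scaled abundance that edgeR gives) in KO-labelled libraries and at 93.9, 91.2 and 88.7 CPM in WT libraries (log2 change -0.03 ± 0.08 SE, adjusted p = 0.822). In GM it stood at 130.3, 136 and 137 CPM in KO-labelled libraries and at 130.1, 135 and 108 CPM in WT libraries (0.11 ± 0.08, adjusted p = 0.35). Protein and edited sequence were not measured, so genotype is given below by label. Totals ran from 8821669 to 11536396 counts per library. The summed level of 7 markers of myoblasts and muscle, none of them at 0, was 2672 to 2986 CPM in KO-labelled DM, 285 to 520.2 CPM in KO-labelled GM, 5726 to 5815 CPM in WT DM, and between 1531 and 2108 CPM in WT GM. Among 8 leukocyte markers Ptprc and Adgre1 were at 0 counts in all groups, and the list summed to 20.5 to 51.0 CPM per library. Cd14 averaged 17.6 CPM in KO-labelled DM, 27.9 in KO-labelled GM, 7.74 in WT DM and 28.9 in WT GM. Csf1r averaged 8.09 to 9.52 CPM over the groups, and Lyz2, Cd68 and Itgb2 had counts in every library. The epithelial marker Krt14 averaged 13.8 CPM in KO-labelled DM, 3.19 in KO-labelled GM, 2.73 in WT DM and 1.14 in WT GM. Endothelial markers summed to at most 1.33 CPM per library, neural markers to 3.70 and platelet markers to 10.5. Replicate 3 of each GM group held more of the actin gene Acta1 than its partners, at 227 CPM against 122 and 73.0 in KO-labelled GM and at 680.5 CPM against 351 and 401 in WT GM.

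Levels were set side by side per length, as CPM per kb of each gene's longest coding transcript in GENCODE M21. Itgb1 was the highest of the 10 in every group, at 245 CPM per kb in KO-labelled DM, 302 in KO-labelled GM, 328 in WT DM and 253 in WT GM. Itga7 came next to it in KO-labelled DM (141 CPM per kb) and in WT DM (253 CPM per kb). In GM the genes behind Itgb1 lay close together. In KO-labelled GM Itgb5 (66.7), Itga5 (65.5), Itga3 (60.2) and Itga7 (60.0 CPM per kb) each overlapped the next in their ranges over libraries, and in WT GM so did Itga7 (93.2), Itga5 (89.5) and Itgb5 (77.0 CPM per kb). Itga6 stood at 9.61 CPM per kb in KO-labelled DM, 22.0 in KO-labelled GM, 19.3 in WT DM and 12.1 in WT GM. Itga11, Itga1 and Itga4 were the 3 lowest in every group, at 11.1 CPM per kb or less on this length. When length was taken as the union of all exons, Itga7 ranked number 3 in KO-labelled DM and number 6 in KO-labelled GM, and Itga6 ranked number 8, below Itga11, in KO-labelled DM and in WT DM.

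**Figure D1:**
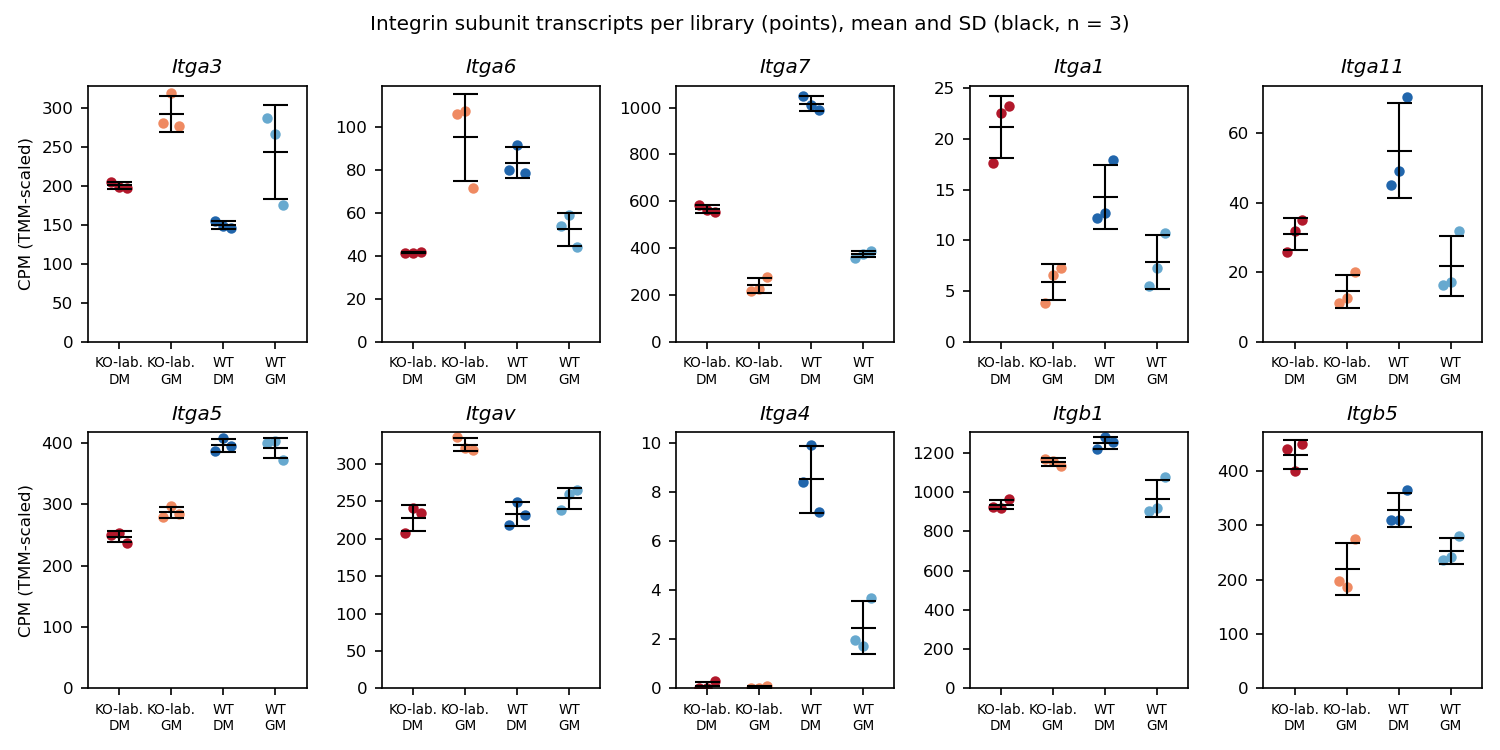
CPM of the 10 integrin genes in each library (coloured points) with the mean and SD of 3 libraries (black), by group, on a linear axis from 0. Itga7 was highest in WT DM at 989 to 1049.9 CPM, and Itga4 lay at 0 to 0.279 CPM in the 6 KO-labelled libraries.

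Set against growth medium, DM changed most of the 10 genes in cells of either label. In KO-labelled cells 4 rose and 5 fell by edgeR's quasi-likelihood test at an adjusted p under 0.05, where 40.6% of all genes tested were called in that comparison, 20.8% as higher and 19.8% as lower. In WT cells 7 rose and 1 fell, where 33.2% of all genes were called, 18.4% as higher and 14.8% as lower. The all-gene balance in WT cells depends on the scaling, at 2442 higher and 1963 lower with the trimmed mean of M-values (TMM) and at 2178 higher and 2430 lower with total counts, while the 7 and 1 integrins did not change in number. The median log2 change of the 10 genes was 0.38 in KO-labelled cells and 0.52 in WT cells, with medians of -0.00 and -0.01 over all genes. The KO-labelled median includes Itga4 (1.31 ± 1.44 SE), which had 3 counts in DM and 1 in GM. Without Itga4 the middle value in KO-labelled cells is that of Itga5, at -0.22, so the sign of this median rests on Itga4. Itga7, Itga1, Itga11 and Itgb5 rose with DM under both labels and Itga3 fell under both. With a log2 change of at least 1 as a further condition, 4 genes were called in KO-labelled cells and 3 in WT cells, beside 10.5% and 9.24% of all genes. All 3 libraries of DM lay on one side of all 3 of GM for 9 of the 10 genes in KO-labelled cells and 8 of the 10 in WT cells, beside 50.7% and 44.3% of all genes.

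The response to DM differed between the labels for 4 of the 10 genes, where 8.86% of all genes were called for that difference. The difference is the log2 response of KO-labelled cells minus that of WT cells. It was negative for Itga6, Itgb1 and Itgav and positive for Itgb5, where 5.25% of all genes were called negative and 3.61% positive. A difference of at least 1 was called for Itga6 alone, beside 2.02% of all genes. The median difference was -0.24 for the 10 genes and -0.01 for all genes. Leaving out any 1 of 6 libraries (KO-labelled DM replicate 1 or 3, KO-labelled GM replicate 1 or 2, WT DM replicate 2, WT GM replicate 2) left 2 genes with a called difference, and without replicate 3 of both GM groups 6 had one. With total counts in place of TMM as the scaling, 683 genes were called positive and 498 negative over all genes, against 478 and 696 with TMM.

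**Figure D2:**
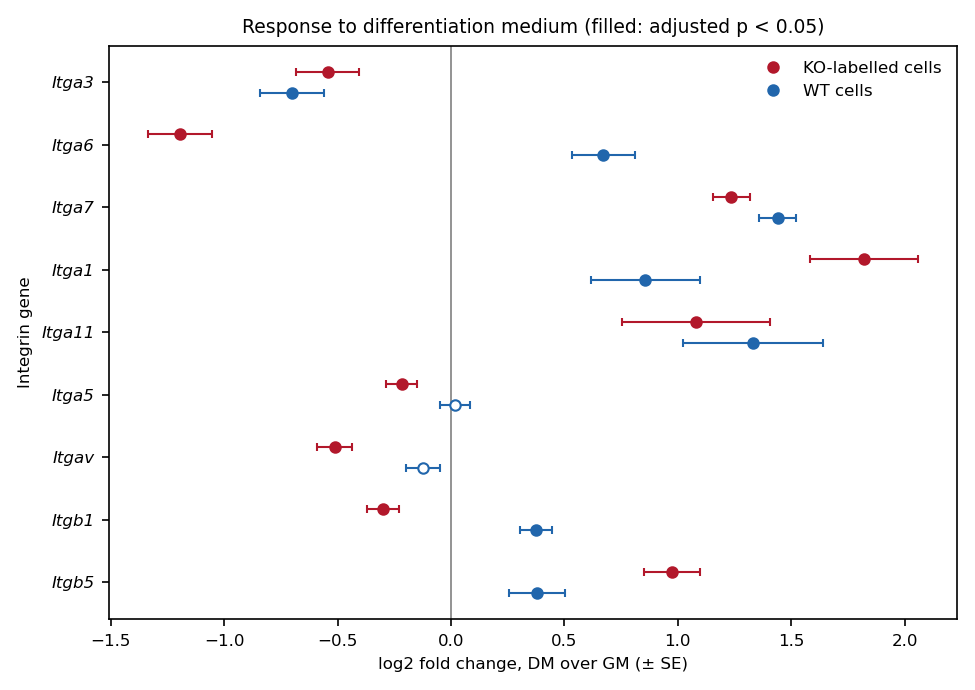
Log2 fold change of DM over GM (points, with SE as bars) for 9 integrin genes in KO-labelled and WT cells, filled where the adjusted p was under 0.05. Itga6 and Itgb1 lie left of 0 in KO-labelled cells and right of 0 in WT cells, and Itga4 is left out because its counts were near 0 in KO-labelled cells.

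Between the labels, 7 of the 10 genes differed in DM and 6 in GM. In DM 2 were higher and 5 lower in KO-labelled libraries, where 31.0% of all genes were called, 13.6% as higher and 17.4% as lower. With total counts 2134 genes were higher and 1968 lower in DM, against 1802 and 2312 with TMM, and 3 integrins were higher and 5 lower. In GM 3 were higher and 3 lower, where 20.7% of all genes were called, 10.0% as higher and 10.6% as lower. The median log2 change was -0.55 in DM and -0.30 in GM, with medians of -0.02 and -0.00 over all genes. Both medians of the 10 genes include Itga4. Without Itga4 the middle value is that of Itgb1 in DM, at -0.42, and that of Itgb5 in GM, at -0.21. Itga4, Itga7 and Itga5 were lower in KO-labelled libraries in either medium, Itga4 having passed the filter through its WT libraries alone. Itga6 and Itgb1 were higher in KO-labelled GM than in WT GM and lower in KO-labelled DM than in WT DM. A log2 change of at least 1 was called for 2 genes in DM and 1 in GM, beside 8.26% and 5.88% of all genes. These were Itga4 and Itga6 in DM and Itga4 alone in GM, so the GM count rests on a gene selected through its WT libraries. The libraries of the labels did not overlap for 8 of the 10 genes in DM and 6 of the 10 in GM, beside 47.5% and 32.3% of all genes. Itga4 is among the non-overlapping genes in both media. Without replicate 3 of both GM groups 9 genes were called in DM and 7 in GM. The comparisons of medium and of label use the same 12 libraries, so their values are not independent of each other.

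**Figure D3:**
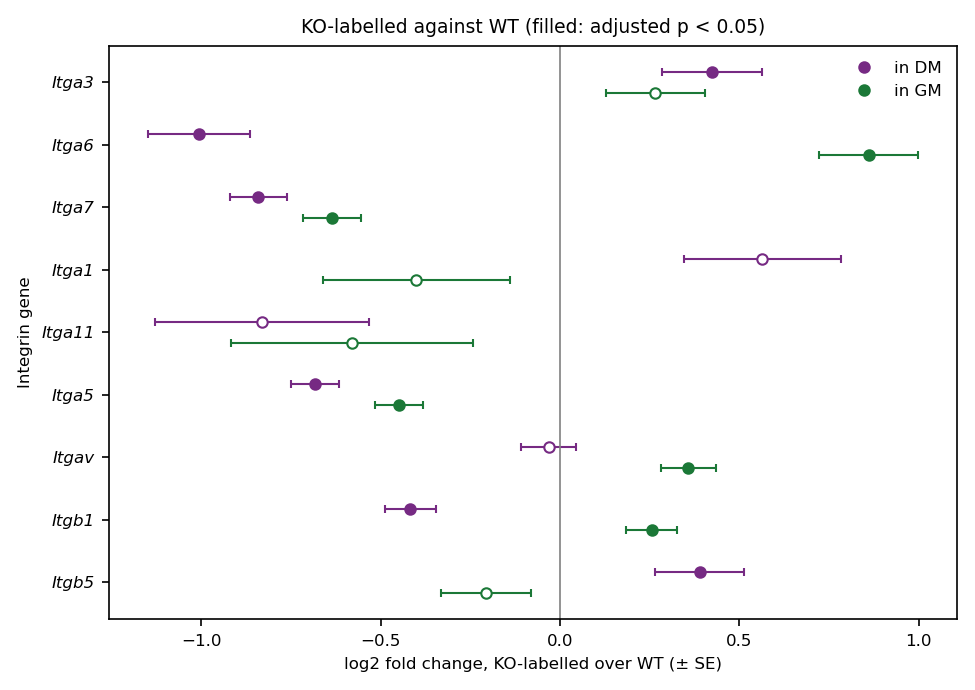
Log2 fold change of KO-labelled over WT cells (points, with SE as bars) for 9 integrin genes in DM and in GM, filled where the adjusted p was under 0.05. Itga5 and Itga7 lie left of 0 in both media, Itga6 and Itgb1 lie left of 0 in DM and right of 0 in GM, and Itga4 is left out because its counts were near 0 in KO-labelled cells.

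The beta subunits moved apart in KO-labelled cells and together in WT cells. Itgb1, the shared partner of most alpha subunits, stood at 924, 920.1 and 964 CPM in KO-labelled DM, at 1169.8, 1156 and 1131 in KO-labelled GM, at 1217, 1281 and 1254 in WT DM and at 903, 919 and 1074 in WT GM. All KO-labelled DM libraries lay below all KO-labelled GM libraries, and all WT DM libraries lay above all WT GM libraries. Itgb1 fell with DM in KO-labelled cells (log2 change -0.30 ± 0.07, adjusted p = 0.00164) and rose with DM in WT cells (0.37 ± 0.07, adjusted p = 0.000251), and these responses differed (-0.67 ± 0.10, adjusted p = 0.000208). Against WT it was lower in KO-labelled DM (-0.42 ± 0.07, adjusted p = 8.75e-05) and higher in KO-labelled GM (0.26 ± 0.07, adjusted p = 0.0118). The GM call ended without WT GM replicate 1 or 2 (adjusted p = 0.0883 and 0.0741) and in a fit of only the 6 GM libraries (adjusted p = 0.0786). In these bulk libraries fewer cells of a type and less RNA per cell cannot be told apart.

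Itgb5, which joins Itgav in a receptor for vitronectin, stood at 441, 400.1 and 449 CPM in KO-labelled DM, at 197, 187 and 274 in KO-labelled GM, at 310.0, 311 and 365 in WT DM and at 236, 242 and 280.5 in WT GM. The DM libraries of each label lay above its GM libraries, and KO-labelled DM lay above all other groups. Itgb5 rose with DM in KO-labelled cells (0.97 ± 0.12, adjusted p = 1.57e-05) and in WT cells (0.38 ± 0.12, adjusted p = 0.0294). The difference of responses was 0.60 ± 0.18 (adjusted p = 0.0481), and that call ended in 9 of the 12 fits that left out 1 library (adjusted p 0.054 to 0.122; it held without KO-labelled DM replicate 2, KO-labelled GM replicate 3 and WT DM replicate 3). The WT rise with DM was no longer called without WT DM replicate 1 or 3 or WT GM replicate 1 or 2 (adjusted p 0.0503 to 0.129). Against WT, Itgb5 was higher in KO-labelled DM (0.39 ± 0.12, adjusted p = 0.0261), a call that ended without replicate 1 or 3 of KO-labelled DM or replicate 1 or 2 of WT DM (adjusted p 0.0656 to 0.0884). In GM the change was -0.21 ± 0.12 (adjusted p = 0.28) with overlapping groups, and it was called as lower without KO-labelled GM replicate 3 (-0.41, adjusted p = 0.002).

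The laminin-binding alpha subunits each took a different course. Itga7 stood at 586, 562 and 555 CPM in KO-labelled DM, at 219, 226 and 278 in KO-labelled GM, at 1049.9, 1011 and 989 in WT DM and at 359.7, 375 and 389 in WT GM. No 2 groups overlapped, and the order ran from WT DM through KO-labelled DM and WT GM to KO-labelled GM. Itga7 rose with DM in KO-labelled cells (1.23 ± 0.08, adjusted p = 7.64e-11) and in WT cells (1.44 ± 0.08, adjusted p = 1.1e-11), and the difference of responses was -0.21 ± 0.11 (95% interval -0.43 to 0.02, adjusted p = 0.284). Against WT it was lower in KO-labelled DM (-0.84 ± 0.08, adjusted p = 3.37e-08) and in KO-labelled GM (-0.64 ± 0.08, adjusted p = 3.74e-06). The summed muscle markers followed the same order of groups (2672 to 2986 CPM in KO-labelled DM, 285 to 520.2 in KO-labelled GM, 5726 to 5815 in WT DM, 1531 to 2108 in WT GM). Taken singly, Myog, Acta1, Ttn and Ckm kept that order in their means. Des (343 against 915 CPM) and Myf5 (4.69 against 18.8 CPM) were lower in KO-labelled DM than in WT GM. Myod1 overlapped between those groups (means 123 and 128 CPM). The part of these markers in the Itga7 values was not tested. The known splice forms of Itga7 and Itga6 are summed in gene counts.

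Itga6 showed the largest difference of responses among the 4 called genes. It stood at 41.1, 41.4 and 41.7 CPM in KO-labelled DM, at 106, 107 and 71.6 in KO-labelled GM, at 80.1, 91.3 and 78.3 in WT DM and at 53.9, 59.0 and 44.0 in WT GM. KO-labelled DM lay below every other group, while KO-labelled GM overlapped WT DM through its lowest library. Itga6 fell with DM in KO-labelled cells (-1.20 ± 0.14, adjusted p = 7.59e-06) and rose with DM in WT cells (0.67 ± 0.14, adjusted p = 0.0017), a difference of -1.87 ± 0.20 (adjusted p = 5.76e-05). Against WT it was lower in KO-labelled DM (-1.01 ± 0.14, adjusted p = 6.97e-05) and higher in KO-labelled GM (0.86 ± 0.14, adjusted p = 0.000399). Each of these Itga6 calls held under every alternative run for it, none of which asked for a minimum size of change.

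Itga3 fell with DM under both labels. It stood at 206, 199 and 198 CPM in KO-labelled DM, at 281, 319.9 and 277 in KO-labelled GM, at 155, 149 and 146 in WT DM and at 288, 268 and 175 in WT GM. WT DM was the lowest group and overlapped none, and replicate 3 of WT GM lay below all KO-labelled libraries. The fall was -0.54 ± 0.14 in KO-labelled cells (adjusted p = 0.00666) and -0.70 ± 0.14 in WT cells (adjusted p = 0.00161), and the difference of responses was 0.16 ± 0.20 (95% interval -0.23 to 0.54, adjusted p = 0.684). Leaving out WT GM replicate 3 gave a called difference (0.37, adjusted p = 0.0179). Itga3 was higher in KO-labelled DM than in WT DM (0.42 ± 0.14, adjusted p = 0.0348), and this call ended in 8 of the 12 fits that left out 1 library: any of KO-labelled DM or WT DM, and KO-labelled GM replicate 1 or 3 (adjusted p 0.0553 to 0.0891). In GM the change was 0.27 ± 0.14 (adjusted p = 0.208), and leaving out WT GM replicate 1 (adjusted p = 0.0402) or the filter on low counts (adjusted p = 0.00981) brought a call.

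The fibronectin receptor subunit Itga5 separated by label. It stood at 250.4, 254 and 237 CPM in KO-labelled DM, at 279, 297 and 285 in KO-labelled GM, at 387, 408 and 395 in WT DM and at 400.0, 404 and 373 in WT GM. All 6 KO-labelled libraries lay below all 6 WT libraries, and the WT groups overlapped. Itga5 was lower in KO-labelled DM than in WT DM (-0.68 ± 0.07, adjusted p = 6.89e-08) and lower in KO-labelled GM than in WT GM (-0.45 ± 0.07, adjusted p = 3.6e-05). With DM it fell in KO-labelled cells (-0.22 ± 0.07, adjusted p = 0.0135), a call that ended without KO-labelled DM replicate 3 or KO-labelled GM replicate 2 (adjusted p = 0.0745 and 0.0757). In WT cells the change with DM was 0.02 ± 0.07 (95% interval -0.12 to 0.15, adjusted p = 0.878). The difference of responses was -0.23 ± 0.10 (adjusted p = 0.136).

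Itgav, the alpha partner of Itgb5, stood at 208, 242 and 234 CPM in KO-labelled DM, at 336, 322 and 319 in KO-labelled GM, at 218, 249.6 and 232 in WT DM and at 238, 259 and 265 in WT GM. KO-labelled GM lay above all other groups, which overlapped one another. Itgav fell with DM in KO-labelled cells (-0.51 ± 0.08, adjusted p = 1.16e-05) and changed by -0.12 ± 0.08 in WT cells (adjusted p = 0.232). The difference of responses was -0.39 ± 0.11 (adjusted p = 0.0262). That call ended with total counts as the scaling (adjusted p = 0.0631) and without any of KO-labelled DM replicates 1 and 3, KO-labelled GM replicates 1 and 2, WT DM replicates 2 and 3, and WT GM replicates 1 and 2 (adjusted p 0.0517 to 0.122). Against WT, Itgav was higher in KO-labelled GM (0.36 ± 0.08, adjusted p = 0.00151). In DM the change against WT was -0.03 ± 0.08 (95% interval -0.18 to 0.12, adjusted p = 0.794).

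The collagen-binding subunits rose with DM under both labels, from low levels. Itga1, which favours basement membrane collagen, stood at 17.6, 22.6 and 23.2 CPM in KO-labelled DM, at 3.87, 6.59 and 7.27 in KO-labelled GM, at 12.2, 12.7 and 18.0 in WT DM and at 5.55, 7.31 and 10.8 in WT GM. DM and GM did not overlap within either label, and KO-labelled and WT libraries overlapped within each medium. It rose by 1.82 ± 0.24 in KO-labelled cells (adjusted p = 8.9e-06) and by 0.86 ± 0.24 in WT cells (adjusted p = 0.0105), the WT call ending without WT DM replicate 3 or WT GM replicate 1 or 2 (adjusted p 0.053 to 0.0685). The difference of responses was 0.97 ± 0.34 (adjusted p = 0.0891). This difference was called without KO-labelled GM replicate 3, WT DM replicate 3 or WT GM replicate 1 (adjusted p = 0.041, 0.0423 and 0.0322). It was also called without replicate 3 of both GM groups (0.0468), with DESeq2 (0.0441), without the filter on low counts (0.00203) and with replicate number as a block (0.00835). Against WT the change was 0.56 ± 0.22 in KO-labelled DM (adjusted p = 0.0611) and -0.40 ± 0.26 in KO-labelled GM (adjusted p = 0.315). The DM change was called with replicate number as a block in the fit (adjusted p = 0.00465) and under 12 other alternatives (adjusted p 0.00161 to 0.0451).

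Itga11, which binds fibrillar collagen, stood at 25.9, 31.7 and 35.1 CPM in KO-labelled DM, at 11.2, 12.6 and 20.0 in KO-labelled GM, at 45.2, 49.2 and 70.5 in WT DM and at 16.5, 17.3 and 31.7 in WT GM. Replicate 3 was the highest library of each group, and KO-labelled DM lay below WT DM without overlap. Itga11 rose with DM in KO-labelled cells (1.08 ± 0.33, adjusted p = 0.0273) and in WT cells (1.33 ± 0.31, adjusted p = 0.00955). The KO-labelled call ended without KO-labelled DM replicate 2 or 3, without KO-labelled GM replicate 1 or 2, and without the filter on low counts (adjusted p 0.0508 to 0.0924). Against WT the change was -0.83 ± 0.30 in KO-labelled DM (adjusted p = 0.0656) and -0.58 ± 0.34 in KO-labelled GM (adjusted p = 0.285). The DM change was called with replicate number as a block in the fit (adjusted p = 5.67e-06) and under 7 other alternatives (adjusted p 0.00052 to 0.0475). The GM change was called under that block alone (-0.57, adjusted p = 0.00188).

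Itga4 was nearly absent from the KO-labelled libraries. It had 0, 0 and 3 counts in KO-labelled DM, 0, 0 and 1 in KO-labelled GM, 73, 97 and 72 in WT DM and 19, 16 and 37 in WT GM. Every WT library held more counts than every KO-labelled library. Itga4 passed the filter on low counts through its WT libraries alone, and its calls between the labels carry that selection. The ratio of summed levels was 0.0113 in KO-labelled DM against WT DM (95% counting interval 0.00231 to 0.0333, adjusted p = 1.1e-08) and 0.0126 in KO-labelled GM against WT GM (0.000314 to 0.0722, adjusted p = 6.91e-06). In WT cells Itga4 averaged 8.50 ± 1.36 CPM in DM and 2.46 ± 1.08 CPM in GM (SD, n = 3), a rise of 1.78 ± 0.34 (adjusted p = 0.000239). At 4 counts over 6 libraries, a response to DM was not detectable in KO-labelled cells. A count of 0 allows up to 0.26 to 0.346 CPM in these libraries.

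Promoter windows are shown for Itga4, the gene with the widest gap between the labels, and for Itgb1 and Itgb5, the beta subunits that moved in opposite directions in KO-labelled cells. Each runs from 250 bases before to 50 bases after the RefSeq start of transcription (build GRCm38.p6), all on the plus strand: Itga4 at chr2:79255176-79255475, Itgb1 at chr8:128685404-128685703 and Itgb5 at chr16:33829415-33829714. Capitals mark CAGCTG, a form of the E-box bound by myogenic factors such as Myod1, or GGAATG, the core bound by TEAD factors, searched on both strands.
Itga4: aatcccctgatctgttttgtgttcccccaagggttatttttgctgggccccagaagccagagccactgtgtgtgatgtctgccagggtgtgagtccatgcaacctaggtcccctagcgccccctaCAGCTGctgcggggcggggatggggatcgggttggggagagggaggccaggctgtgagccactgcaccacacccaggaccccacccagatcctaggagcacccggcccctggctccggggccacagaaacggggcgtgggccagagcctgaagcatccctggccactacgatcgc
Itgb1: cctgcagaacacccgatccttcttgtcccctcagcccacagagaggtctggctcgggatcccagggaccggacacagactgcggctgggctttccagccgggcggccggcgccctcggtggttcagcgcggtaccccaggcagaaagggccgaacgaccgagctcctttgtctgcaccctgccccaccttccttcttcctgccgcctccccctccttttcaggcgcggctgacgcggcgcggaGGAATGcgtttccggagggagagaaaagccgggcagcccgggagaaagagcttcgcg
Itgb5: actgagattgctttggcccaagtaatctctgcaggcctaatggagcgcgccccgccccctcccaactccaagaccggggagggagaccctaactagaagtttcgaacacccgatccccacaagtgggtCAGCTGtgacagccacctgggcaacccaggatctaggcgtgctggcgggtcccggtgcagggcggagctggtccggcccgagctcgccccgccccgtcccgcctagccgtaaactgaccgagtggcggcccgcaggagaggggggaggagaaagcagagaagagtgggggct
CAGCTG starts at position -125 of Itga4 and -122 of Itgb5, and GGAATG starts at -7 of Itgb1, counted from the start of transcription. Windows were found for 8 of the 10 genes, with none for Itga6 and Itga7 and 2 for Itga3. CAGCTG was also present for Itga1 and Itga5, making 4 of 8 genes, and 16.3% of all 32851 windows held it. The first is a share of genes and the second a share of windows. GGAATG was present for Itgb1 alone of the 8, and 14.7% of all windows held it. These are matches of letters, and no binding was measured.

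The make-up of the alpha subunit transcripts shifted towards Itga7 in DM. Itga7 made up 48.8 ± 1.05% of the summed CPM per kb of the 8 alpha genes in KO-labelled DM, 23.3 ± 3.06% in KO-labelled GM, 57.5 ± 1.39% in WT DM and 32.6 ± 2.44% in WT GM (SD, n = 3). The 3 laminin-binding genes together held 66.5 ± 1.27% in KO-labelled DM, 55.2 ± 0.61% in KO-labelled GM, 68.9 ± 1.43% in WT DM and 54.2 ± 1.72% in WT GM. Itga5 and Itgav together held 30.7% in KO-labelled DM, 43.4% in KO-labelled GM, 28.1% in WT DM and 43.9% in WT GM. Itga3 held 14.3% in KO-labelled DM and 7.01% in WT DM. Shares depend on the length used. By exon union the laminin-binding genes held 58.3% in KO-labelled DM, 50.0% in KO-labelled GM, 58.5% in WT DM and 46.7% in WT GM, and Itga5 and Itgav held 37.9% in KO-labelled DM, 48.3% in KO-labelled GM, 37.1% in WT DM and 50.9% in WT GM. In WT GM the larger share thus changed sides. By exon union Itga7 held 37.2% in KO-labelled DM, 16.3% in KO-labelled GM, 45.6% in WT DM and 22.9% in WT GM. The alpha sum was 289 ± 3.58 CPM per kb in KO-labelled DM, 257 ± 6.47 in KO-labelled GM, 439.9 ± 5.37 in WT DM and 286 ± 11.4 in WT GM. The sum of Itgb1 and Itgb5 was 376 ± 13.2 CPM per kb in KO-labelled DM, 369 ± 10.3 in KO-labelled GM, 428 ± 13.3 in WT DM and 330.1 ± 32.2 in WT GM. By exon union the beta sum was above the alpha sum in all 4 groups.

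**Figure D4:**
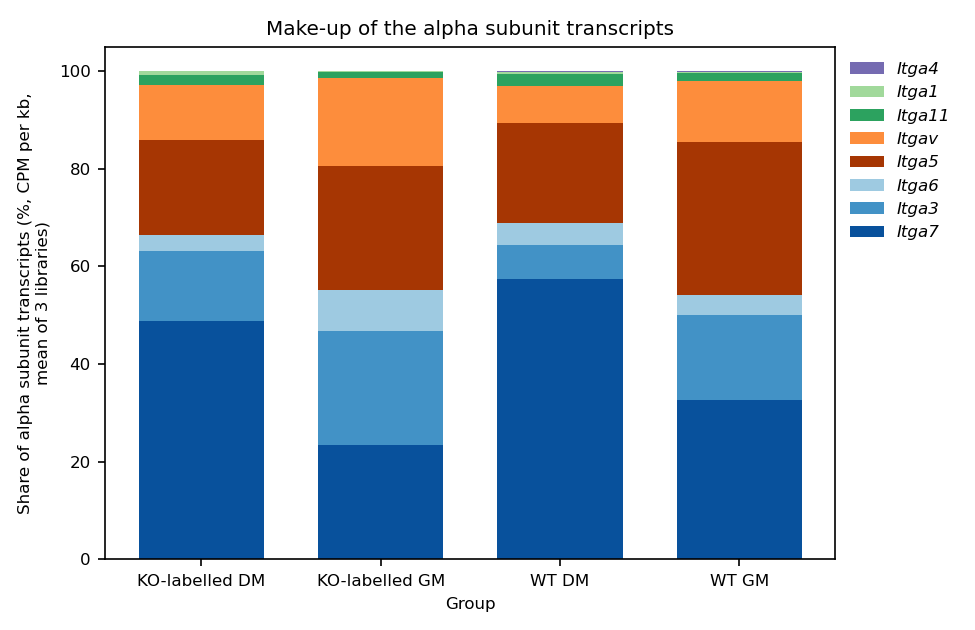
Share of each alpha gene in the summed CPM per kb of the 8 alpha genes (stacked bars, mean of 3 libraries) in the 4 groups. Itga7 (bottom) takes 48.8% in KO-labelled DM and 57.5% in WT DM, against 23.3% in KO-labelled GM and 32.6% in WT GM.

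Likeness of pattern was described by Pearson's r of log2 CPM over the 12 libraries, which share media, labels and depth, and 12028 other genes were searched. The gene closest to Itga7 was Chrna1 (r = 0.996), the alpha subunit of the muscle acetylcholine receptor, followed by the tropomyosin gene Tpm2 (r = 0.992). The closest to Itga4 was Peg10 (r = 0.991), a paternally expressed gene, and to Itga5 it was Cadm4 (r = 0.989), a cell adhesion molecule, followed by the myosin light chain gene Myl9 (r = 0.986). Itga11 was nearest to the protease gene Prss23 (r = 0.987), Itgb5 to Ranbp3l (r = 0.986), Itga3 to the kinase gene Mink1 (r = 0.979), Itga1 to the proprotein convertase gene Pcsk6 (r = 0.971), Itgav to Tiparp (r = 0.967), Itga6 to the pentraxin gene Nptx1 (r = 0.96) and Itgb1 to Lnpk (r = 0.937). Between members, r was 0.928 for Itga7 with Itga11, 0.879 for Itga5 with Itga4, 0.792 for Itga6 with Itgb1, and -0.955 for Itga3 with Itga11. With 0 to 3 counts in each KO-labelled library, the log2 CPM of Itga4 there is set largely by the prior count of 2. The r values of Itga4 thus rest mainly on its WT libraries and on the gap between the labels.

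Of 16 further integrin subunits 8 had enough counts to be tested, Itgb8 through its WT libraries alone. In KO-labelled cells 2 rose with DM and 2 fell, beside 40.6% of all genes called, and in WT cells 3 rose and 3 fell, beside 33.2%. Itgb6, another partner of Itgav, rose with DM in KO-labelled cells (1.69 ± 0.22, adjusted p = 2.6e-06) and in WT cells (1.92 ± 0.21, adjusted p = 2.65e-07). Itgb7, a partner of Itga4, fell in KO-labelled cells (-2.27 ± 0.46, adjusted p = 0.00352) and in WT cells (-2.34 ± 0.43, adjusted p = 0.00251). Itgb3, also a partner of Itgav, averaged 13.7 ± 2.02 CPM in KO-labelled DM, 29.4 ± 1.86 in KO-labelled GM, 32.8 ± 1.49 in WT DM and 43.8 ± 7.17 in WT GM (SD, n = 3). It was lower in KO-labelled DM (-1.26 ± 0.13, adjusted p = 1.01e-07) and KO-labelled GM (-0.57 ± 0.12, adjusted p = 0.00096) than in WT cells in the same medium. Itgb8 had 1 count over the KO-labelled DM libraries and 1 over KO-labelled GM, against 213 over WT DM and 54 over WT GM. Its ratio to WT was 0.00427 in DM (95% counting interval 0.000108 to 0.0240) and 0.0167 in GM (0.000416 to 0.0973). Itga10, at 2.26 ± 0.214 CPM in KO-labelled DM and 2.44 ± 1.01 in WT DM, rose with DM in KO-labelled cells (2.08 ± 0.48, adjusted p = 0.00136) and in WT cells (2.94 ± 0.54, adjusted p = 0.000179). In WT cells Itgb8 rose with DM (2.00 ± 0.33, adjusted p = 5.7e-05) and Itgb2 fell (-1.21 ± 0.37, adjusted p = 0.0137). Itga2b and Itgb4 were called in none of the 5 comparisons.

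Among the ligands, 5 of 10 tested laminin chains rose with DM in KO-labelled cells and 2 fell, where 20.8% of all genes rose and 19.8% fell. In WT cells 3 rose and 2 fell, where 18.4% of all genes rose and 14.8% fell. Lama2, the laminin alpha chain of the muscle basement membrane, averaged 24.1 ± 2.81 CPM in KO-labelled DM and 44.4 ± 4.13 in WT DM (-0.88 ± 0.12, adjusted p = 3.5e-06). The beta chain Lamb2 averaged 238 ± 4.03 CPM in KO-labelled DM, 131 ± 18.1 in KO-labelled GM, 141 ± 7.98 in WT DM and 111 ± 3.49 in WT GM, and its response differed between the labels (0.51 ± 0.12, adjusted p = 0.00734). Of 15 other ligands 8 rose and 5 fell with DM in KO-labelled cells (40.6% of all genes called), and 8 rose and 3 fell in WT cells (33.2%). Against WT, 1 was higher and 8 lower in KO-labelled DM (31.0% of all genes called, 17.4% as lower). In KO-labelled GM none was higher and 3 were lower (20.7% of all genes called, 10.6% as lower). The median log2 change of these 15 was -0.37 in DM and -0.22 in GM. Nephronectin, Npnt, averaged 126 ± 11.5 CPM in KO-labelled DM, 311 ± 37.0 in KO-labelled GM, 343 ± 13.7 in WT DM and 363 ± 13.5 in WT GM, a difference of responses of -1.22 ± 0.12 (adjusted p = 2.03e-06). Periostin, Postn, was lower in KO-labelled than in WT cells in DM (-2.24 ± 0.32, adjusted p = 0.000814) and in GM (-2.97 ± 0.39, adjusted p = 0.000814), and so was the collagen gene Col4a1 (-1.77 ± 0.18, adjusted p = 2.83e-05 in DM).

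Inside the cell, most called genes of the adhesion scaffold were lower in DM and lower in KO-labelled cells. Of 20 scaffold genes tested, 3 rose and 12 fell with DM in KO-labelled cells (40.6% of all genes called, 19.8% as lower). In WT cells 5 rose and 10 fell (33.2% of all genes called, 14.8% as lower). Against WT, 1 was higher and 12 lower in KO-labelled DM (median -0.37, with 31.0% of all genes called, 17.4% as lower). In KO-labelled GM 1 was higher and 8 lower (median -0.15, with 20.7% of all genes called, 10.6% as lower). The pathway lists were tested with TMM alone. With total counts the all-gene balance between the labels in DM was 2134 higher and 1968 lower, against 1802 and 2312 with TMM. Melusin, Itgb1bp2, which binds the Itgb1 tail in muscle, rose with DM in KO-labelled cells (4.99 ± 0.41, adjusted p = 3.37e-08) and in WT cells (4.05 ± 0.29, adjusted p = 6.54e-09). It averaged 11.2 ± 1.54 CPM in KO-labelled DM, 0.331 ± 0.484 in KO-labelled GM and 32.7 ± 4.24 in WT DM, and was lower in KO-labelled DM than in WT DM (-1.54 ± 0.23, adjusted p = 4.63e-05). Vinculin, Vcl, averaged 415 ± 11.5 CPM in KO-labelled DM, 429 ± 15.2 in KO-labelled GM, 579.5 ± 43.7 in WT DM and 433 ± 12.4 in WT GM, and its response differed (-0.47 ± 0.10, adjusted p = 0.00475). Of 10 activators and inhibitors 1 rose and 6 fell with DM in KO-labelled cells, beside 40.6% of all genes called, and 1 rose and 4 fell in WT cells, beside 33.2%. The integrin activator talin, Tln1 (-0.45 ± 0.09, adjusted p = 0.000483) and the filamin gene Flna (-0.71 ± 0.08, adjusted p = 3.62e-07), which competes with talin for beta tails, were lower in KO-labelled DM than in WT DM. Kindlin-2, Fermt2, averaged 187 ± 13.7 CPM in KO-labelled DM and 264 ± 6.09 in KO-labelled GM, against 231 ± 7.30 in WT DM and 231 ± 5.88 in WT GM (difference of responses -0.50 ± 0.10, adjusted p = 0.00302).

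Of 15 adhesion kinases and adaptors 2 rose and 5 fell with DM in KO-labelled cells, and 1 rose and 4 fell in WT cells, where 40.6% and 33.2% of all genes were called, so these counts lie near the share over all genes. The kinase Fyn was the 1 that rose in WT cells (0.81 ± 0.08, adjusted p = 1.12e-07), and it was lower in KO-labelled DM than in WT DM (-1.19 ± 0.09, adjusted p = 4.39e-10). The 10 membrane proteins that associate with integrins gave 3 rises and 5 falls in KO-labelled cells and 2 rises and 4 falls in WT cells, beside 40.6% and 33.2% of all genes called. The urokinase receptor Plaur fell with DM in KO-labelled cells (-2.22 ± 0.11, adjusted p = 7.1e-13) and in WT cells (-1.65 ± 0.10, adjusted p = 7.47e-11). The tetraspanin Cd82 averaged 353 ± 11.3 CPM in KO-labelled DM, 208 ± 16.9 in KO-labelled GM, 344 ± 17.6 in WT DM and 294 ± 7.89 in WT GM (difference of responses 0.53 ± 0.10, adjusted p = 0.00247).

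**Figure D5:**
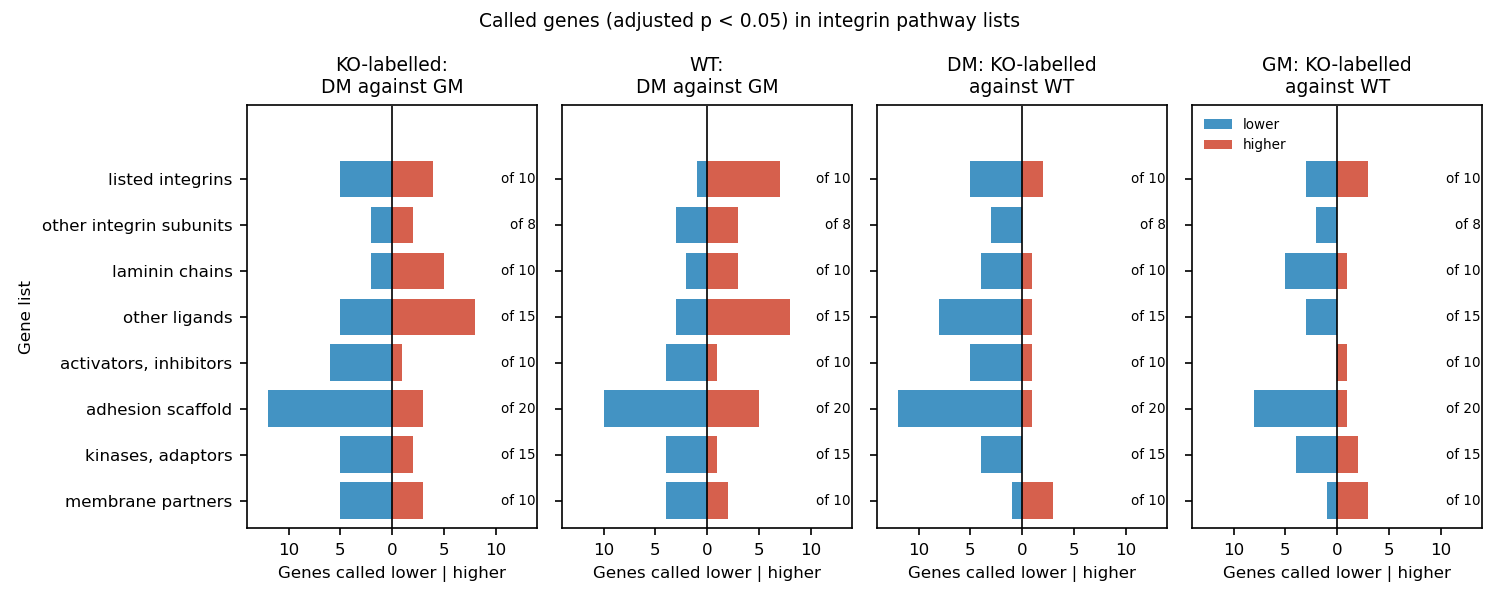
Number of genes called higher (right) and lower (left) at an adjusted p under 0.05 in the 10 listed integrins and in 7 lists of integrin pathway genes, for 4 comparisons, with the number tested beside each bar. In the adhesion scaffold 12 of 20 genes were lower in KO-labelled DM than in WT DM, beside 17.4% of all genes.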

How the data were processed

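RNA was sequenced by the submitters as paired reads of 150 bp from 12 libraries, 3 biological replicates in each of 4 groups, with a single batch date. The deposited file holds the authors' unnormalized whole-number counts for 55416 Ensembl genes, 52083 with a symbol; 4 empty columns were not used. The build GRCm39 and the tools DESeq2 1.40.2, R 4.3.1, RSEM 1.3.3 and STAR 2.7.1a stand in the lists, per the submitters' processing notes. The tool that made the counts, any rounding and the use of strand are not stated there, so reads of overlapping, antisense or near-identical genes could not be told apart.

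The model was fitted with edgeR 4.0.16 in R 4.3.3 (filterByExpr, TMM, a quasi-likelihood fit with robust dispersion over all 12 libraries, 2-sided). The filter left 13250 genes with 99.91% of counts. P-values were adjusted by Benjamini and Hochberg's method across those genes, and calls were made below 0.05. Changes are log2 ± SE, with 95% intervals of 1.96 SE, and r used a prior count of 2. Lengths came from GENCODE M21 on the previous build, and promoter windows from RefSeq. Floors of 3 counts and the exact 95% Poisson intervals of low-count ratios cover counting error only. P-values measure the spread between these libraries. Replicate numbers were taken from the labels. The fit was tested on data simulated for KO-labelled DM against GM (13250 genes), where it called 76 of 100 genes given a log2 change of 1, 95 of 100 given 2, and 7 of 12820 tested genes given none.

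The members and the pathway lists were chosen with earlier results of these data known. Named were all members, Mapk14, other tested integrins, per list and comparison up to 2 called genes of largest change reaching 10 CPM in either group, and for each member the genes of highest r; the text gives part of these. Alternatives were other scalings, DESeq2 1.42.0, limma-voom (limma 3.58.1), other filters, fits of 6 libraries, dispersion without robust estimation, a replicate block and leaving out libraries. Leaving out replicate 3 of both GM groups was added after seeing the data.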

Additional observations from a re-analysis of the deposited data

Results flagged for a closer look

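For 4 integrin genes the response to DM differed between KO-labelled and WT cells by edgeR's test of that difference (adjusted p, KO-labelled response minus WT response). Itga6 differed by -1.87 (adjusted p = 5.76e-05), with a fall in KO-labelled cells and a rise in WT cells, and Itgb1 by -0.67 (adjusted p = 0.000208) with the same pattern. Itgav differed by -0.39 (adjusted p = 0.0262) and Itgb5 by 0.60 (adjusted p = 0.0481). With no minimum size of change, the calls for Itga6 and Itgb1 held under every alternative run for them, and those for Itgav and Itgb5 each ended under 9. Of the 4, Itga6 alone had a difference of at least 1. No cause of these differences was tested.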

How the results depend on the processing

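Over 50 member results and 1139 values under alternatives, 1042 kept their direction and side of the threshold, 47 lost the call, 36 gained one and 14 changed sign, and 25 of 34 called results kept their call under all of them, none of which set a minimum size of change. For each comparison of 2 groups, these alternatives include fits that left out a library of neither group. Such fits keep every library compared, so a kept call there is a weak check. Asking for a log2 change of at least 1 cut the genes called to 4 (KO-labelled DM against GM), 3 (WT DM against GM), 1 (KO-labelled against WT in GM), 2 (in DM) and 1 (difference of responses), since fewer genes pass by construction. Leaving out 1 library in turn gave 7 to 9, 6 to 8, 5 to 7, 5 to 9 and 2 to 5 genes in that order, and the cause was not tested. Itga4 was the 1 gene called with a log2 change of at least 1 between the labels in GM. The replicate block gave 9, 8, 8, 9 and 5 genes, adding calls for Itga11 between the labels in GM (-0.57, adjusted p = 0.00188) and in DM (-0.81, adjusted p = 5.67e-06), Itgb5 in GM (adjusted p = 0.0433), and Itga1 in DM (adjusted p = 0.00465) and in the difference of responses (adjusted p = 0.00835). Deviations from the group means were weakly correlated between libraries that share a number (-0.0851 to 0.186, 1 of 12 over 0.1). Between libraries of different number the correlations ran from -0.2595 to 0.2095, a wider range. Over all genes the block gave 1557 higher and 1573 lower between the labels in GM, against 1330 and 1410 without it. Whether the numbers pair the libraries cannot be settled from these values, since deviations within groups of 3 are few and the labels do not state a pairing. The sign changes concerned uncalled results. Itga5 in WT DM against WT GM was -0.0060 with upper-quartile factors, -0.028 with total counts and -0.022 without replicate 3 of both GM groups, and ran from -0.023 to 0.026 over left-out libraries. Itgav in KO-labelled against WT DM was 0.011 with total counts and ran from -0.063 to 0.052. The Itga11 difference of responses ran from -0.60 to 0.066. For Itga4, with 4 counts in KO-labelled cells, DM against GM ran from -1.81 to 3.11 and the difference of responses from -3.57 to 1.35, with 0.92 without replicate 3 of both GM groups. Depth limits what the Itga4 and Itgb8 values of KO-labelled cells can show.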
